A study of Rattus norvegicus with 12 samples.

Results

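The adipocyte genes Adipoq, Plin1, Plin4, Fabp4, Lep, Cidec, Lipe, Pparg, Cfd, and Retn were followed in the wound tissue of diabetic rats. They are a list of 10 symbols, chosen by name as genes of the fat cell, with earlier results of these data known. All 10 were found among the 25620 genes of the count table. All 10 also passed the low-count filter, as did 16110 genes altogether. RNA sequencing was performed on skin taken at full-thickness wounds on the back of male SD rats made diabetic with streptozotocin (STZ), a toxin that destroys the insulin-producing beta cells. The 4 groups were the control given saline, d-SMG (the dried mucus gel of the snail *A. fulica*), s-GAG (a glycosaminoglycan of that mucus, labelled GAG), and Alg (a commercial alginate dressing), each on days 3, 7, and 14. All 4 groups carried the diabetes and the wound, and no unwounded or nondiabetic library was analysed here. The labels give no age, and the number of rats behind a library is not given in the sources used here.

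White adipocytes lie in the dermis and below it, around hair follicles and over the thin muscle sheet of rodent skin. They store fatty acids as triglyceride in a lipid droplet with a coat of perilipin and CIDE proteins, release them again by lipolysis, and secrete hormones into the blood. The nuclear receptor PPARG, together with C/EBP factors, turns on this program in precursor cells. In whole tissue, fewer fat cells and less RNA per fat cell cannot be told apart.

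The promoters of the members were read for the letters to which these factors bind. Of the 10 members, 8 matched the RefSeq promoter table (rat build GRCr8), and Fabp4 and Lipe were not matched. The 250 bases before the start site of the genes below are shown because Retn had the largest estimates among the members, while Plin1 and Cidec followed Adipoq most closely among the lipid droplet genes. Capitals mark the nuclear receptor motif AGGTCA in Retn (chr12:6508524-6508773, plus strand) and the C/EBP core motif TTGCNNAA in Plin1 (chr1:143086149-143086398, minus strand) and in Cidec (chr4:148137116-148137365, minus strand). Each sequence is written 5′ to 3′ on the strand of its gene.
Retn: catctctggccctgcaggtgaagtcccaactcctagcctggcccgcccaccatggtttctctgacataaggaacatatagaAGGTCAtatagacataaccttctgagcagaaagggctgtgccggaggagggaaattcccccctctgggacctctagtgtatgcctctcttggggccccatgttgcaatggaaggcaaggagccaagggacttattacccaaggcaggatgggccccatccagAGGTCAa
Plin1: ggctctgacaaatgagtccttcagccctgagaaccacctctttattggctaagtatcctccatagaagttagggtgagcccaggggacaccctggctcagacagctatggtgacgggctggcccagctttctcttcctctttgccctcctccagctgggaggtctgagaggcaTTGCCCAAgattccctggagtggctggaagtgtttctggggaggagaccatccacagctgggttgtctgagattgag
Cidec: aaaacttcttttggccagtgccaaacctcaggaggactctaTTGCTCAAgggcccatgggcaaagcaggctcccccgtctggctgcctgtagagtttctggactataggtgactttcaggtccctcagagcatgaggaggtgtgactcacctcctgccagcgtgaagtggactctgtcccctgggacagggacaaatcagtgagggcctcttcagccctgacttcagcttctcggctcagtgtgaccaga

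The AGGTCA motif, searched on both strands, occurred only in Retn among the 8 member promoters, beginning 169 and 7 bases before the start, and in 13.7% of all 27457 promoters of the table. The same motif repeated directly after 1 base, the layout named DR1 that PPARG binds with RXR, was in 0 of the 8 and in 0.0546% of all promoters. The C/EBP core was in 3 of the 8 (Plin1, Lep, and Cidec, at 77, 69, and 209 bases before the start) and in 9.2% of all promoters. A later start site of Pparg also held a C/EBP core, 174 bases upstream. The letters TATAAA were in 0 of the 8 and in 13.1% of all promoters. These matches describe letters in short windows and say nothing of binding.

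The 12 libraries, 1 for each group and day, held 13748887 to 38302461 reads on genes (median 17022524.5), and the members took between 0.0597% (control, day 7, 95% exact Clopper-Pearson interval 0.0585% to 0.0610%) and 0.237% (Alg, day 3, 0.235% to 0.239%) of them. Each group had 1 library on a given day, so that no spread between animals stands behind the values of that day. The d-SMG library of day 3 stood apart from the rest. Its 10 keratinocyte markers summed to 46.2 CPM (counts scaled to the library size with TMM factors), with none of them at 0 reads, against 4221 to 33926 CPM in the other 11 libraries, although the label says skin. Its 15 skeletal muscle markers summed to 249760 CPM, and the muscle sum of the other libraries ranged from 5899 CPM (d-SMG, day 7) to 158609 CPM (Alg, day 7). The s-GAG library of day 14 had the highest keratinocyte sum and a muscle sum of 148001 CPM. Both libraries had the lowest TMM factors, 0.741 and 0.744, and the estimates of the members over the days, the list results, and the likeness counts are also given without them where they moved.

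Per length, in FPKM (fragments scaled by gene length and by library total), Fabp4 was the most abundant member in all 12 libraries. Fabp4, the carrier that shuttles fatty acids inside the adipocyte and is also made by capillary endothelium and macrophages, had a median level of 538 FPKM (range 245 to 940 FPKM). Cfd, or adipsin, the serine protease that starts the alternative complement pathway, followed at a median of 147 FPKM. Adipoq (adiponectin) had a median of 19.6 FPKM, and both Fabp4 over Cfd and Cfd over Adipoq held in 12 of 12 libraries. The next 5 genes lay close together, namely Retn (10.9 FPKM), Plin1 (9.60 FPKM), Pparg (6.31 FPKM), Plin4 (5.66 FPKM), and Lipe (4.69 FPKM). Neighbors from Adipoq down to Lipe held this order in only 7 to 9 of 12 libraries, so that their levels overlapped. Cidec (1.26 FPKM) lay below Lipe, and Lep (0.18 FPKM) below Cidec, in 12 of 12 libraries. Lep (leptin, the hormone that reports fat stores to the brain) rested on 189 reads in all libraries together. In reads, Fabp4 made up 67.7% to 85.8% of all member reads of a library, and a summed level of the members was therefore mainly that of Fabp4.

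**Figure D1:**
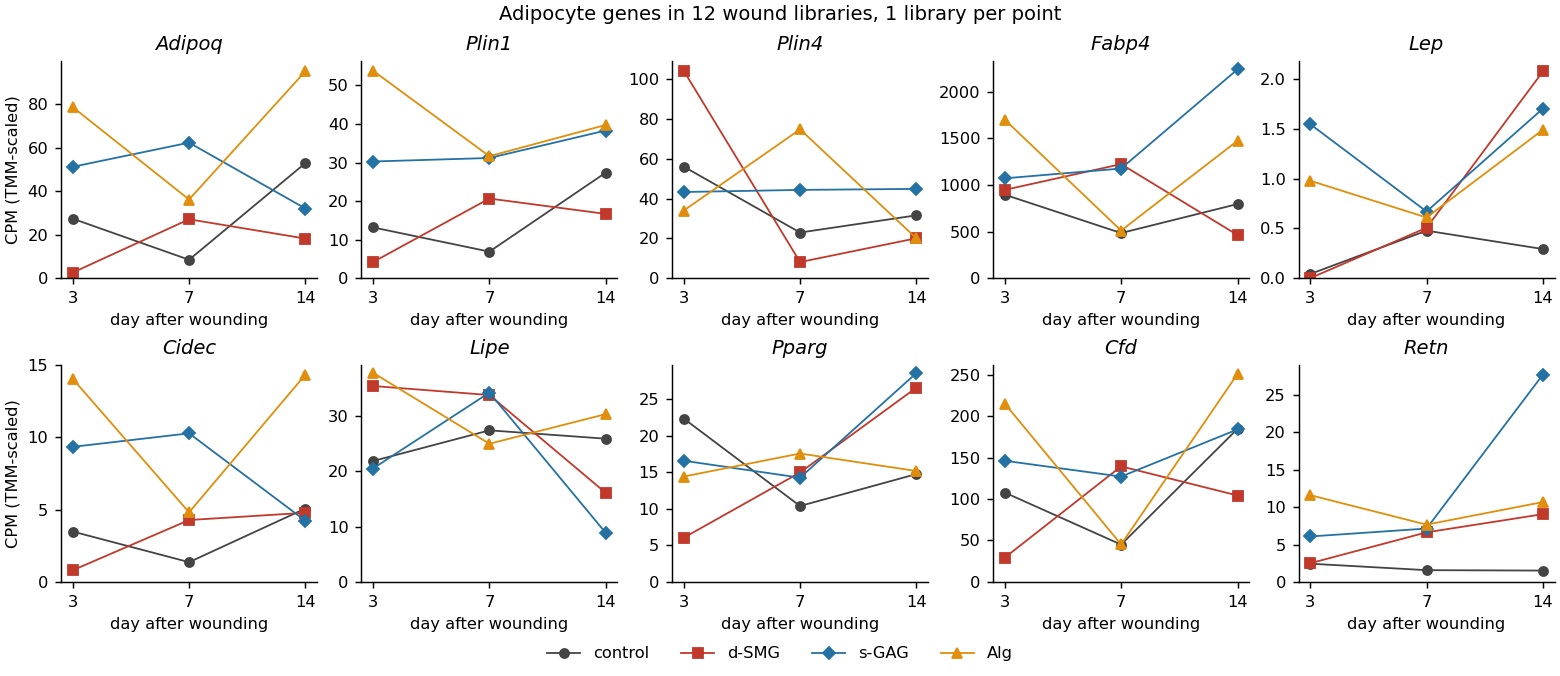
Level of each member (linear axis from 0, CPM scaled by TMM) on days 3, 7, and 14, with 1 library per point and lines joining the libraries of a group. On this scale, Retn was lowest in the control on every day, and Adipoq, Plin1, Cidec, and Cfd had their lowest level in the d-SMG library of day 3.

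Among the secreted factors, Retn in CPM was lower in the control than in the treated libraries of each day. Resistin, its product, is a hormone that rodent adipocytes secrete and that was named for its link to insulin resistance. Retn stood at 2.44, 1.57, and 1.51 CPM in the control libraries on days 3, 7, and 14. With d-SMG, the levels were 2.49, 6.63, and 9.06 CPM on the same days. With s-GAG they were 6.08, 7.14, and 27.7 CPM. All 3 s-GAG libraries lay above all 3 control libraries. With Alg the Retn levels were 11.6, 7.66, and 10.7 CPM, again without overlap with the control. The d-SMG range did not overlap the control range either, but its day 3 library (31 reads) exceeded the control of that day (58 reads) by 0.034 on the log2 scale, with a 95% counting interval of -0.64 to 0.69. In CPM, the control had the lowest Retn level of the 4 libraries on each of the 3 days. Retn was the only member with this pattern in CPM, which 1.46% of all genes showed. The pattern did not hold in FPKM, which is not scaled by TMM. There the d-SMG library of day 3 (2.85 FPKM) lay below the control of that day (3.75 FPKM), and the d-SMG range overlapped the control range.

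**Figure D2:**
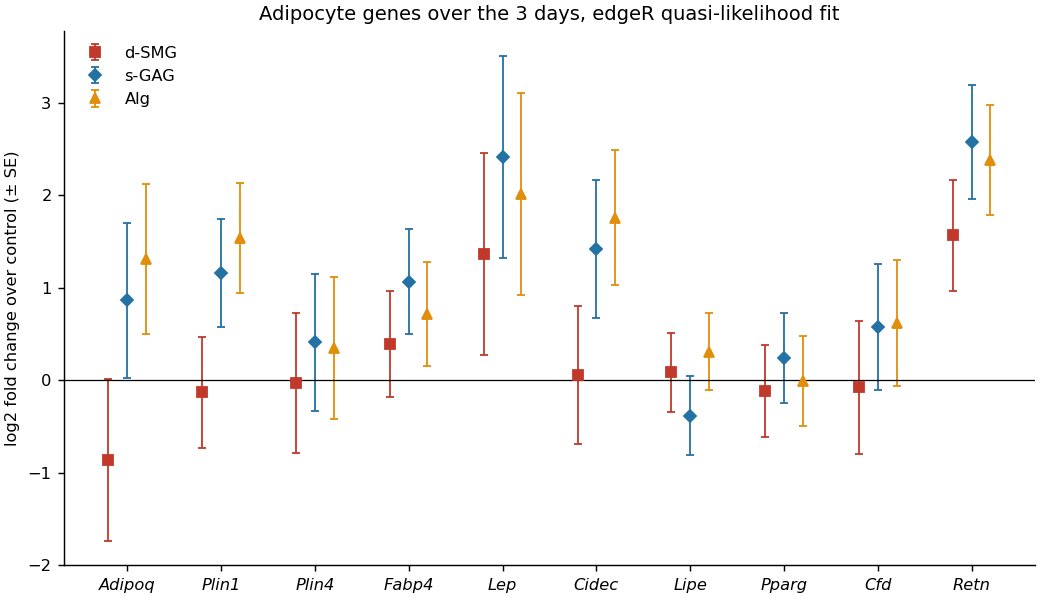
Log2 fold change of each member over the control (y axis, points with SE) in the fit of all 12 libraries over the 3 days, for d-SMG (squares), s-GAG (diamonds), and Alg (triangles). Retn was the highest point with every treatment (1.57, 2.58, and 2.38), and Adipoq with d-SMG was the lowest at -0.86.

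Over the days, Retn was 5.99-fold higher with s-GAG (log2 fold change 2.58, SE 0.62, unadjusted p = 0.00211, adjusted p = 0.417, edgeR quasi-likelihood test). With Alg it was 5.22-fold higher in the same edgeR test (log2 2.38, SE 0.60, unadjusted p = 0.00282, adjusted p = 1), and with d-SMG 2.96-fold higher (log2 1.57, SE 0.60, unadjusted p = 0.0272, adjusted p = 1). In this model the 3 days serve as the replicates of a treatment. No member passed an FDR of 0.05 in any of these 3 comparisons, nor did any of the 16110 genes tested (0%). DESeq2 called Retn with s-GAG (log2 2.60, adjusted p = 0.00326) and with Alg (log2 2.40, adjusted p = 0.0221) but not with d-SMG (adjusted p = 1), when it called 1.79%, 0.546%, and 0.0559% of all genes, respectively. The call of Retn therefore depended on the tool. Without the s-GAG library of day 14, which held the highest Retn level, the s-GAG estimate was 1.90 (SE 0.53, edgeR adjusted p = 0.407). Without the d-SMG library of day 3, the d-SMG estimate was 2.07 (SE 0.61, edgeR adjusted p = 0.689).

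Adiponectin, the insulin-sensitizing hormone encoded by Adipoq, varied more widely than Retn but without a set order of the groups. Adipoq was at 27.3, 8.46, and 52.9 CPM in the control on days 3, 7, and 14. In the d-SMG group it was at 2.57, 27.1, and 18.2 CPM, overlapping the control range. In the s-GAG group it was at 51.1, 62.2, and 32.0 CPM, and in the Alg group at 78.6, 36.1, and 95.1 CPM. The highest Alg level was 36.9 times the lowest d-SMG level, and every treated group overlapped the control. The log2 fold change over the days was -0.86 (SE 0.88) with d-SMG, 0.86 (SE 0.84) with s-GAG, and 1.31 (SE 0.82) with Alg, all with an edgeR adjusted p of at least 0.712. Without the d-SMG library of day 3, the d-SMG estimate for Adipoq moved to -0.074 (SE 0.74), and without the s-GAG library of day 14, the s-GAG estimate moved to 1.36 (SE 0.94).

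Cfd followed a similar course to Adipoq. Its level was 108, 45.0, and 185 CPM in the control, and 29.2, 139, and 104 CPM with d-SMG. With s-GAG it was at 146, 127, and 184 CPM, and with Alg at 215, 45.2, and 251 CPM. The control and Alg libraries of day 7 were thus alike and low, and all treated groups overlapped the control. Its log2 fold changes over the days were -0.077 (SE 0.72), 0.58 (SE 0.69), and 0.62 (SE 0.68) for d-SMG, s-GAG, and Alg. Without the d-SMG library of day 3, the d-SMG estimate for Cfd was 0.63 (SE 0.65).

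Lep was near the detection limit. It had 1, 7, and 6 reads in the control libraries, 0, 11, and 33 reads with d-SMG, 27, 26, and 25 reads with s-GAG, and 20, 9, and 24 reads with Alg. As CPM, the control stayed at or below 0.478, and the lowest s-GAG and Alg levels were 0.670 and 0.610 CPM, above all control libraries. The 0 reads of the d-SMG library of day 3 allow a level of up to 0.241 CPM, that of 3 reads. The log2 fold change was 2.42 (SE 1.10, edgeR unadjusted p = 0.0538) with s-GAG, 2.02 (SE 1.09) with Alg, and 1.36 (SE 1.09) with d-SMG. Without the d-SMG library of day 3 the d-SMG estimate for Lep was 1.995 (SE 0.89), and without the s-GAG library of day 14 the s-GAG estimate was 2.72 (SE 1.26). The Lep estimates also depended on other libraries, as d-SMG was at 0.22 (SE 1.23) without its day 14 library and s-GAG at 1.64 (SE 1.10) without its day 3 library. Over all libraries left out singly, the Lep estimates ranged from 0.22 to 2.52 with d-SMG, from 1.64 to 3.56 with s-GAG, and from 1.41 to 3.16 with Alg.

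Among the lipid droplet genes, Plin1 and Cidec moved with Adipoq. Perilipin 1, encoded by Plin1, coats the large droplet and guards it from lipases. Plin1 stood at 13.2, 6.89, and 27.4 CPM in the control and at 4.18, 20.7, and 16.7 CPM with d-SMG. With s-GAG it was at 30.3, 31.2, and 38.3 CPM, and with Alg at 53.8, 31.7, and 39.8 CPM. All s-GAG and Alg libraries were above the highest control library, whereas d-SMG overlapped the control. The estimate over the days was 2.90-fold with Alg (log2 1.54, SE 0.59, edgeR unadjusted p = 0.0277, adjusted p = 1) and 2.24-fold with s-GAG (log2 1.16, SE 0.58, unadjusted p = 0.0763, adjusted p = 0.567). With d-SMG the log2 fold change of Plin1 was -0.13 (SE 0.60), and 0.47 (SE 0.51) without its day 3 library.

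Cidec (FSP27) lets small droplets fuse into the single large one of the white adipocyte. Cidec was at 3.49, 1.37, and 5.08 CPM in the control, and at 0.804, 4.28, and 4.78 CPM with d-SMG. It was at 9.35, 10.3, and 4.23 CPM with s-GAG and at 14.1, 4.81, and 14.4 CPM with Alg. Each treated group overlapped the control here, because the s-GAG library of day 14 and the Alg library of day 7 lay below the control of day 14. The log2 fold change was 1.76 with Alg (SE 0.73, edgeR unadjusted p = 0.0381, adjusted p = 1), 1.42 with s-GAG (SE 0.75, unadjusted p = 0.0889, adjusted p = 0.572), and 0.056 with d-SMG (SE 0.75). Without the s-GAG library of day 14 the s-GAG estimate for Cidec was 1.95 (SE 0.75, edgeR unadjusted p = 0.0310, adjusted p = 0.536), and without the d-SMG library of day 3 the d-SMG estimate was 0.72 (SE 0.64).

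Plin4, a perilipin of small nascent droplets that is also made in skeletal muscle, went its own way. It was at 56.1, 22.9, and 31.6 CPM in the control, 104, 8.10, and 20.1 CPM with d-SMG, 43.3, 44.3, and 44.9 CPM with s-GAG, and 33.9, 74.8, and 20.005 CPM with Alg. Its highest and lowest levels were both in the d-SMG group, on days 3 and 7, the libraries with the highest and the lowest muscle sum. The log2 fold change with d-SMG was -0.031 (SE 0.75), and -1.24 (SE 0.68, edgeR unadjusted p = 0.102) without the day 3 library. With s-GAG and Alg it was 0.41 (SE 0.74) and 0.35 (SE 0.77), and Plin4 with s-GAG was at 0.019 (SE 0.90) without the day 14 library.

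Fabp4 read 895, 484, and 795 CPM in the control and 946, 1222, and 463 CPM with d-SMG. With s-GAG it was at 1070, 1175, and 2238 CPM, above all control libraries, and with Alg at 1700, 510, and 1472 CPM, of which the day 7 library fell within the control range. The log2 fold change was 1.07 with s-GAG (SE 0.57, edgeR unadjusted p = 0.0927, adjusted p = 0.575), 0.72 with Alg (SE 0.56), and 0.39 with d-SMG (SE 0.57). The s-GAG estimate for Fabp4 was 0.64 (SE 0.61) without the day 14 library, and the d-SMG estimate 0.54 (SE 0.70) without the day 3 library.

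Lipe, the hormone-sensitive lipase that splits diglyceride during lipolysis, had none of its 3 treatment estimates over all 12 libraries above its SE. It ranged from 21.9 to 27.4 CPM in the control libraries, and the treated libraries ranged from 8.86 CPM (s-GAG, day 14) to 37.9 CPM (Alg, day 3). Its log2 fold changes were 0.085 (SE 0.43) with d-SMG, -0.39 (SE 0.43) with s-GAG, and 0.31 (SE 0.42) with Alg. Without the s-GAG library of day 14 the s-GAG value for Lipe was -0.013 (SE 0.40), without that of day 7 it was -0.87 (SE 0.45), and without the d-SMG library of day 3 the d-SMG value was -0.052 (SE 0.49).

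Pparg was at 22.3, 10.4, and 14.7 CPM in the control and at 6.03, 14.96, and 26.6 CPM with d-SMG. It was at 16.6, 14.3, and 28.6 CPM with s-GAG and at 14.4, 17.6, and 15.2 CPM with Alg, and no group was separate from the control. The log2 fold changes were -0.12 (SE 0.50), 0.24 (SE 0.49), and -0.013 (SE 0.49) for d-SMG, s-GAG, and Alg. Without the d-SMG library of day 3 the d-SMG estimate for Pparg was 0.45 (SE 0.43), and without the s-GAG library of day 14 the s-GAG estimate was 0.073 (SE 0.55).

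Counted over the list, an unadjusted p below 0.05 was reached by 1 of 10 members with d-SMG (Retn), 1 with s-GAG (Retn), and 3 with Alg (Retn, Plin1, and Cidec). Over all 16110 genes the shares were 1.35%, 9.26%, and 3.12%. These counts depended on single libraries. With Alg the count was 1 (Retn) without the Alg library of day 3, beside 1.51% of all genes. Plin1 was then at 0.98 (SE 0.65, edgeR unadjusted p = 0.164) and Cidec at 1.33 (SE 0.86, edgeR unadjusted p = 0.161). The count with Alg was also 1 without the control of day 3 (2.90% of all genes). It was 2 (Lep and Retn) without the control of day 7 (3.28%), and 2 (Plin1 and Retn) without the Alg library of day 14 (3.99%). With d-SMG it was 0 without the control of day 7 or 14 or the d-SMG library of day 7 or 14 (0.794% to 2.44% of all genes). With s-GAG it was 2 without the control of day 7 or 14, the d-SMG library of day 7 or 14, or the s-GAG library of day 14. The shares of all genes were then 5.43% to 8.63%. The count was 4 with s-GAG and 4 with Alg (Plin1, Cidec, Lep, and Retn in both) without the d-SMG library of day 3, beside 10.8% and 4.71% of all genes. The median log2 fold change of the members was 0.012 with d-SMG, 0.97 with s-GAG, and 1.02 with Alg, beside medians over all genes of -0.030, 0.0021, and -0.027. With s-GAG and with Alg, 9 of 10 members had a positive estimate, and with d-SMG 5 of 10. In CPM, all 3 treated libraries lay above all 3 control libraries for 1 member with d-SMG (Retn, which overlapped in FPKM), against 2% of all genes. The same held for 4 members with s-GAG (Plin1, Fabp4, Lep, and Retn) against 10.2% of all genes, and for 3 members with Alg (Plin1, Lep, and Retn) against 5.93%. For Lep, the s-GAG and Alg libraries of day 7 were within counting error of the control of that day. In no group did a member lie wholly below the control. These comparisons share the same 3 control libraries, of which the day 7 library held the lowest share of member reads, so that they are not independent of one another. Without that control library, the Adipoq estimate was 0.24 with s-GAG and 0.81 with Alg.

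On day 3, the library pairs differed in direction by treatment. With d-SMG, 5 of the 9 members with enough reads were at least 2-fold lower than in the control (13.5% of all genes), and 0 were 2-fold higher (9.47%). Adipoq had the largest difference of the 9, with 651 reads in the control and 32 with d-SMG, or 10.6-fold lower (log2 -3.41, 95% counting interval -3.97 to -2.90). Cidec was 4.33-fold lower, Pparg 3.70-fold, Cfd 3.69-fold, and Plin1 3.15-fold, whereas Fabp4 and Retn stayed within 1.06-fold and Plin4 was 1.86-fold higher. Beside these differences stand the keratinocyte sum of 46.2 CPM and the muscle sum of 249760 CPM in this library, whose part in them was not tested. With s-GAG, 4 members were 2-fold higher on day 3 (14.6% of all genes), namely Plin1, Lep, Cidec, and Retn, and 0 lower (10.9%). With Alg, 5 were higher (11.5%), the same 4 and Adipoq, and 0 lower (8.73%), with Plin1 4.08-fold and Retn 4.77-fold above the control. Cfd with Alg, at 1.996-fold, lay just under the limit and was not counted. The Lep ratio on day 3 rests on 1 control read. It was 36.9 with s-GAG (95% counting interval 6.08 to 1509) and 23.3 with Alg (3.73 to 967), and 12.3 and 7.78 when that read was counted as 3. An edgeR exact test of each pair was run at an assumed biological coefficient of variation (BCV) of 0.3, which a single pair does not supply. The fit of all 12 libraries had a larger common BCV of 0.495. At the assumed BCV the exact test called Adipoq lower with d-SMG (4.68% of all genes) and 0 higher (1.87%). It called Lep higher with s-GAG (3.18%) and 0 lower (1.28%), and Lep and Retn higher with Alg (1.47%) and 0 lower (1.13%).

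**Figure D3:**
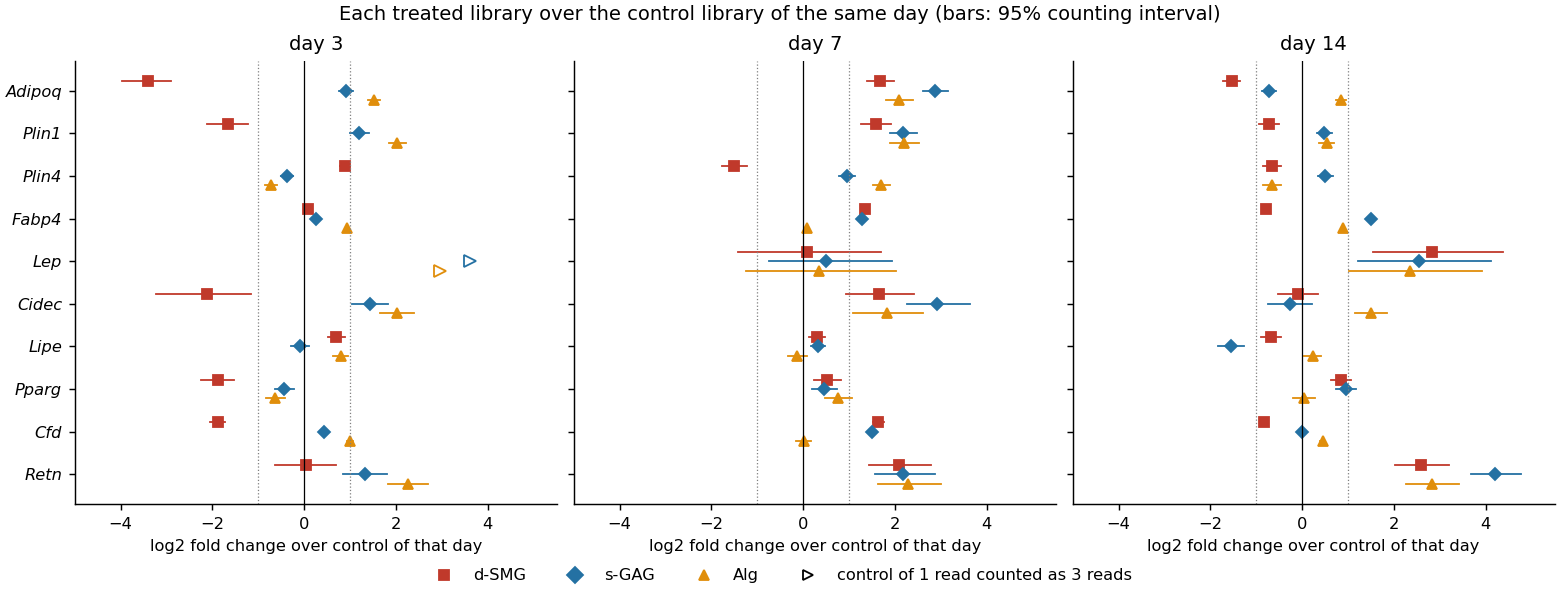
Log2 fold change of each treated library over the control library of the same day (x axis) for each member (y axis) on days 3, 7, and 14, with bars for the 95% counting interval and dotted lines at 2-fold. On day 3 the d-SMG points of Adipoq, Plin1, Cidec, Pparg, and Cfd lie left of the 2-fold line, and on day 7 the points of 6 (d-SMG), 6 (s-GAG), and 5 (Alg) of 10 members lie right of the upper one.

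On day 7, 9 of 10 members were above the control with d-SMG, 10 with s-GAG, and 9 with Alg, and 7 members were then at the lowest of their 3 control levels. The share of all genes above the control was not computed. The median log2 fold change of the members was 1.46, 1.39, and 1.23, respectively, beside -0.046, 0.051, and 0.013 over all genes. With d-SMG, 6 of 10 members were at least 2-fold higher (6.76% of all genes), and Plin4 was lower (6.38%). With s-GAG, 6 were higher (11.9%) and 0 lower (12.5%), and with Alg 5 were higher (12.5%) and 0 lower (11.9%). Adipoq was 3.20-fold higher with d-SMG, 7.35-fold with s-GAG, and 4.27-fold with Alg. Cidec was 3.14-fold, 7.53-fold, and 3.52-fold higher, respectively, and Plin1 was 3.00-fold, 4.52-fold, and 4.59-fold higher. Retn was higher by similar factors, 4.22-fold, 4.55-fold, and 4.88-fold. Fabp4 was 2.53-fold and 2.43-fold higher with d-SMG and s-GAG but 1.05-fold with Alg, and Cfd showed the same split at 3.10-fold, 2.83-fold, and 1.005-fold. Plin4 was 2.83-fold lower with d-SMG and 3.26-fold higher with Alg, the libraries with muscle sums of 5899 and 158609 CPM, and the part of muscle in this was not tested. The exact test at the assumed BCV called 0 members higher (0.742%) and 0 lower (1.03%) with d-SMG on day 7, 4 higher (Adipoq, Plin1, Cidec, and Retn, 3.42%) and 0 lower (2.96%) with s-GAG, and 1 higher (Plin1, 1.03%) and 0 lower (1.11%) with Alg.

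On day 14, Lep and Retn were at least 2-fold higher with every treatment, and the other members past 2-fold differed by treatment. With d-SMG, Lep (7.09-fold) and Retn (5.99-fold) were at least 2-fold higher (12.6% of all genes), while Adipoq was 2.91-fold lower (16.1%). In this pair 7 of 10 members were below the control, a share that was not computed over all genes. The median log2 fold change was -0.67 for the members and -0.015 over all genes. With s-GAG, Retn was 18.3-fold, Lep 5.82-fold, and Fabp4 2.82-fold higher, and Lipe was 2.93-fold lower. In this pair as many as 27.8% of all genes were 2-fold higher and 30.0% lower, so that these counts of 3 and 1 of 10 members are near the background. With Alg, Retn (7.06-fold), Lep (5.09-fold), and Cidec (2.83-fold) were higher (9.10%) and 0 were lower (12.2%). The Lep values of day 14 carry wide counting intervals, for instance 1.02 to 3.93 on the log2 scale with Alg. On this day the exact test at the assumed BCV called Lep and Retn higher with d-SMG (2.01%) and with s-GAG (15.2%), Retn higher with Alg (2.33%), and 0 lower in any of them (3.79%, 17.8%, and 2.79%).

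Over time, no member passed the FDR of 0.05 between days in the edgeR fit (0 of 16110 genes, 0%), and 0 of 10 members had an unadjusted p below 0.05. The shares of all genes with such a p were 1.81% for day 7 against day 3, 4.95% for day 14 against day 3, and 3.12% for day 14 against day 7. DESeq2 also called 0 members, and 0, 39, and 7 of all genes in these comparisons. The largest estimates for day 14 against day 3 were those of Lep (log2 1.45, SE 0.91) and Plin4 (-1.12, SE 0.67).

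The 10 members did not form a single profile over the 12 libraries. Adipoq, Cidec, Plin1, and Cfd varied together. On log2 CPM, Pearson's r was 0.95 between Adipoq and Cidec (Spearman's rho 0.93), 0.94 between Adipoq and Plin1 (rho 0.85), and 0.84 between Adipoq and Cfd (rho 0.82), and these became 0.87, 0.77, and 0.54 without the 2 libraries farthest from the median of Adipoq. The correlations describe 12 libraries that share treatments, days, and tissue composition, and no p is given. The median r of a member with the other 9 was 0.42 to 0.68 for 8 members but -0.22 for Plin4 and -0.16 for Lipe. The r of Pparg, one of these 8, depended on which libraries were left out. These were the 2 farthest from the median of 1 gene of the pair, so that they can differ between pairs. Left out by the median of the other gene, r with Adipoq went from 0.52 (rho 0.049) to -0.72. In the same way, r with Cidec went from 0.46 to -0.60, and with Plin1 from 0.57 to -0.40. With Lep it went from 0.57 to 0.68, and with Fabp4 it stayed positive (0.092). Left out by the median of Pparg itself, r with Cfd and Retn stayed positive (0.059 and 0.28). Lipe and Pparg ran in opposite directions (r = -0.73, rho = -0.85, and r = -0.54 without the 2 libraries farthest from the median of Lipe). In the d-SMG library of day 3 the ratio of Plin4 to Adipoq in FPKM was 11.1, against a median of 0.268 and a lowest value of 0.0578 in Alg on day 14. The ratio of Cidec to Adipoq stayed within 3.34-fold over all 12 libraries.

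**Figure D4:**
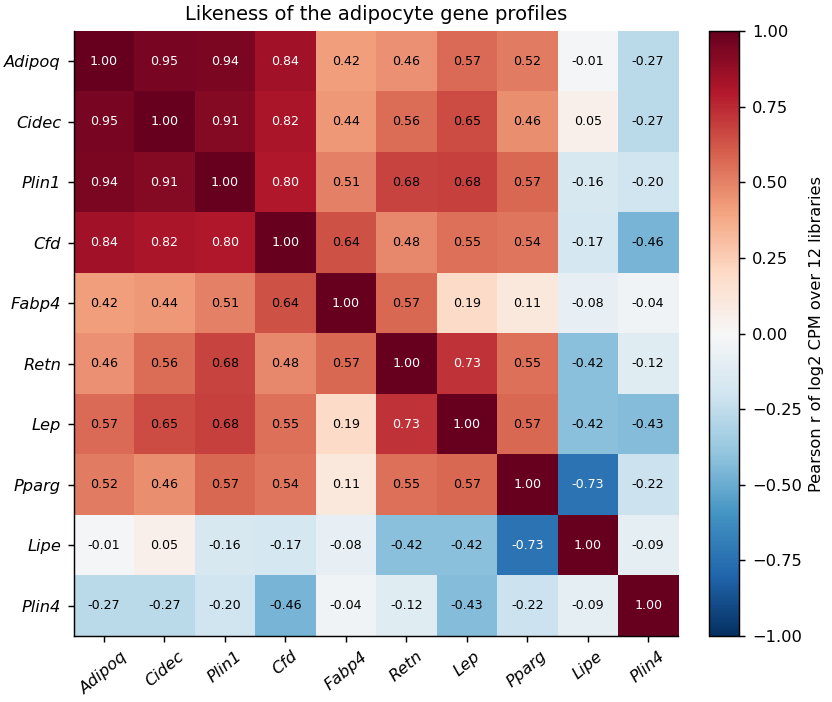
Pearson r of log2 CPM over the 12 libraries for each pair of members, from blue (-1) to red (1). Adipoq, Cidec, Plin1, and Cfd form a red block with r from 0.80 to 0.95, and the rows of Lipe and Plin4 are pale or blue.

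Plin4 followed the muscle markers. Its r with the sum of the 15 skeletal muscle markers was 0.90 (rho 0.88, and 0.83 without the 2 farthest libraries), while the r of the other members with that sum ranged from -0.50 to -0.0072. Pparg, which sebaceous glands of the skin also express, had r = 0.88 with the sum of 8 sebaceous gland markers (rho 0.66) and 0.82 with the sum of 10 keratinocyte markers (rho 0.64). Without the 2 farthest libraries the former fell to 0.55 and the latter to 0.41, and 2 of the 8 sebaceous markers, Awat2 and Far2, were at 0 reads in the d-SMG library of day 3. Lipe had r = -0.72 with the sebaceous sum (rho -0.83, and -0.75 without the 2 farthest libraries). The muscle, keratinocyte, and sebaceous sums were all present in every library, and the part of these cell types in the member levels was not tested.

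**Figure D5:**
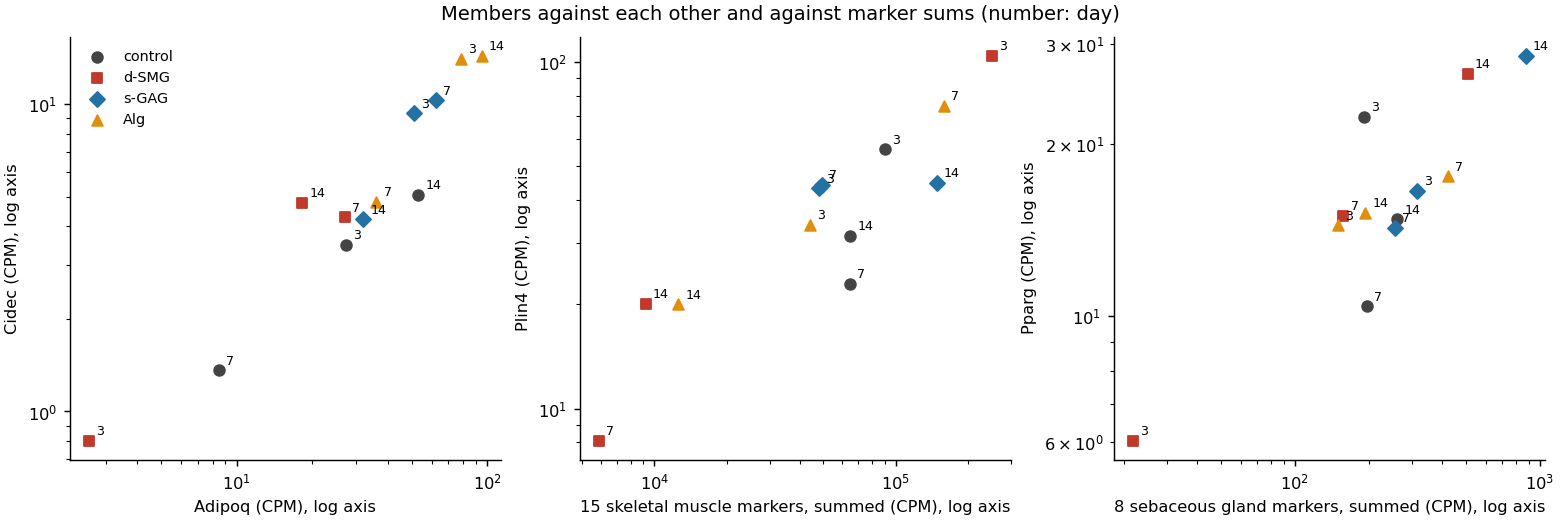
Levels in the 12 libraries on log axes (CPM scaled by TMM, number beside each point giving the day): Cidec against Adipoq, Plin4 against the summed skeletal muscle markers, and Pparg against the summed sebaceous gland markers. Points rise together in all 3 panels, with r on log2 CPM of 0.95, 0.90, and 0.88, and the d-SMG library of day 3 lies at an end of each.

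Of 16100 other genes, the one most like the mean standardized profile of the members was Pck1 (r = 0.96, rho = 0.98, and 0.91 without the 2 farthest libraries). Pck1 encodes the cytosolic PEP carboxykinase, which in fat makes the glycerol backbone of triglyceride. Its level was 5.63, 2.12, and 7.37 CPM in the control and 1.29, 11.6, and 6.99 CPM with d-SMG. With s-GAG it was at 11.7, 27.9, and 16.3 CPM, above all control libraries, and with Alg at 60.5, 12.1, and 56.5 CPM, likewise. Such a lack of overlap was shown by 10.2% of all genes with s-GAG and 5.93% with Alg. As Pck1 was picked here for its likeness to the members in these same libraries, its levels and estimates are not independent of theirs. The Pck1 estimate over the days was 3.13 on the log2 scale with Alg (SE 0.88, edgeR unadjusted p = 0.00553, adjusted p = 1), 1.88 with s-GAG (SE 0.86, adjusted p = 0.545). The next 9 genes by likeness were Ppp1r1b, Foxn1, LOC120098179, Fam83e, Tfap4, Dynll1, Sptssb, Ly6g6e, and Kng2, with r from 0.91 to 0.93 and from 0.71 to 0.81 without the 2 farthest libraries. Among them, LOC120098179 (0 to 0.93 CPM), Fam83e (0 to 1.18 CPM), and Sptssb (0 to 1.88 CPM) were near the detection limit. Foxn1 is a transcription factor of the hair follicle and epidermis. All 10 keratinocyte markers had r above 0.5 with the member profile, as did 5 of 7 sebaceous gland markers and 6 of 26 further genes of lipid storage and lipolysis, against 13.9% of all genes. Those 6 were Pck1, Aqp7, Agpat2, Gpihbp1, Cidea, and Plin3. Without the d-SMG library of day 3 the counts were 6 of 10 keratinocyte markers, 0 of 7 sebaceous gland markers, and 3 of 26 lipid genes (Pck1, Agpat2, and Aqp7), against 9.93% of all genes, and the r of Pck1 was 0.93. They were 10, 5, and 5 without the s-GAG library of day 14. The keratinocyte sum was lowest in the d-SMG library of day 3 and next lowest in the control of day 7, which were also the lowest 2 libraries of the member profile.

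Other genes of the adipocyte program are given by list. Among 26 further genes of lipid storage and lipolysis, 0 passed the FDR in any treatment comparison of the edgeR fit. An unadjusted p below 0.05 was reached by 0, 0, and 2 of them for d-SMG, s-GAG, and Alg, beside 1.35%, 9.26%, and 3.12% of all genes. The 2 with Alg were Pck1 and Aqp7 (log2 1.34, SE 0.48), the glycerol channel of the adipocyte. Aqp7 was low in all libraries, at 0.478 to 2.30 CPM. The list medians were -0.16, 0.19, and 0.18. With s-GAG the largest estimates after Pck1 were those of G0s2, an inhibitor of the lipase ATGL (1.36, SE 0.76), and Adig (1.27, SE 1.02). Without the s-GAG library of day 14 these were 2.13 (SE 1.03) for Pck1, 0.65 (SE 0.73) for G0s2, and -0.30 (SE 0.70) for Adig, which thus changed sign. With d-SMG they were Gpd1 (1.26, SE 1.24), Plin5 (-0.70, SE 1.11), and Lpin1 (0.63, SE 0.69). They were at -0.97 (SE 0.79), -1.10 (SE 1.36), and -0.39 (SE 0.61) without the d-SMG library of day 3.

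Of the 13 adipocyte transcription factors, 0 passed the FDR, and 1 had an unadjusted p below 0.05, in the s-GAG comparison where 9.26% of all genes did. It was Ebf2 with s-GAG (log2 -1.81, SE 0.79, edgeR adjusted p = 0.539), a factor of fat precursors, which was at -1.12 (SE 0.70) without the s-GAG library of day 14. Medians of this list were -0.043, -0.078, and -0.0016 for d-SMG, s-GAG, and Alg. Among 12 adipokine and hormone receptors, 0 passed, and 10, 10, and 8 had a negative estimate. With s-GAG, 5 of the 12 were negative without the library of day 14. Adrb3, the beta-3 adrenergic receptor of fat cells, had the largest absolute estimate of the list with s-GAG (0.81, SE 0.98) and with Alg (1.22, SE 0.999). It was near the detection limit, at 0 to 0.784 CPM (median 0.385). Of 7 fatty acid synthesis genes, 0 passed. With s-GAG and with Alg 6 of them had a positive estimate each, led by Thrsp, a lipogenic protein of liver and fat (1.16, SE 0.64 with s-GAG, and 0.71, SE 0.61 with Alg). With d-SMG 5 of the 7 had a negative estimate (median -0.26). Without the d-SMG library of day 3, 6 of the 7 were positive with d-SMG (median 0.17). Of 8 markers of adipose progenitors, 0 passed, and 6, 6, and 7 had a negative estimate, among them Pdgfra with s-GAG (-1.47, SE 0.75, and -0.88, SE 0.69, without the day 14 library).

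Among the brown and beige fat genes, Ucp1, the uncoupling protein that defines brown fat, had 0 reads in 11 libraries and 1 read in the d-SMG library of day 3. Of the 6 measured genes of that list, 0 passed, and Dio2 had the largest estimate with s-GAG (2.12, SE 0.79, edgeR unadjusted p = 0.0242, adjusted p = 0.504), and 2.18 (SE 0.90) without the day 14 library. Markers of other cell types are given beside the members. With s-GAG, 11 of 11 macrophage markers had a negative estimate (median -1.40) and 9 of 10 endothelial markers (median -0.66). With Alg, 10 of 11 macrophage markers were negative (median -0.86) and 9 of 10 endothelial markers (median -0.23). With d-SMG the counts were likewise 10 of 11 (median -0.42) and 9 of 10 (median -0.24). Without the d-SMG library of day 3, 8 of 11 macrophage markers were negative with d-SMG (median -0.17). The share of all genes with a negative estimate was not computed. None of these markers passed the FDR in the edgeR fit. An unadjusted p below 0.05 was reached by 4 macrophage markers with s-GAG, 3 with Alg, and 3 endothelial markers with s-GAG. Over all genes the shares were 9.26% with s-GAG and 3.12% with Alg. The part of these cell types in the member levels was not tested. Without the s-GAG library of day 14, which had the lowest macrophage sum, 11 of 11 macrophage markers were still negative with s-GAG (median -0.87) and 10 of 10 endothelial markers (median -0.68), but 1 and 2 of them had an unadjusted p below 0.05, beside 8.63% of all genes. The summed macrophage level ranged from 3072 to 4276 CPM in the control, 729 to 2005 CPM with s-GAG, 1026 to 3472 CPM with Alg, and 1781 to 4635 CPM with d-SMG. The 15 skeletal muscle markers had list medians of -0.19, 0.49, and -0.019 with d-SMG, s-GAG, and Alg, the 10 keratinocyte markers -0.47, 1.26, and 0.75, the 7 tested sebaceous gland markers -0.47, 0.58, and 0.43, and the 9 fibroblast markers -0.64, -0.81, and -0.54. In these 4 lists 0 genes passed the FDR and 0 had an unadjusted p below 0.05 in the 3 treatment comparisons of the edgeR fit. The muscle medians rested on single libraries, being -1.36 with s-GAG without its day 14 library and -2.98 with d-SMG without its day 3 library, when 11 of 15 muscle markers had an unadjusted p below 0.05 (5.14% of all genes) and 0 passed the FDR. Without these libraries the keratinocyte, sebaceous gland, and fibroblast medians were 1.53, 0.70, and -0.30 with s-GAG and 0.37, 0.19, and -0.24 with d-SMG. Over all 12 lists beside the members, DESeq2 called Aif1, a macrophage marker, with s-GAG and Pck1 with Alg, and 0 with d-SMG.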

How the data were processed

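The members and gene lists were chosen with earlier results of these data known. Per the labels, RNA of 12 skin samples was sequenced as stranded, rRNA-depleted paired-end libraries. The authors deposited counts of reads per gene for 25620 genes, without normalization, and FPKM of 25524 genes, which the authors scaled by gene length and mapped fragments and rounded. The submitters' processing notes name bcl2fastq, FastQC, TopHat2, and edgeR, and their versions, the counting tool, and the genome build are not given in the sources used here. Each table holds 1 further value column that matches no sample, and it was not used. The library totals of 13748887 to 38302461 reads limit precision for Lep above all.

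Counts were fitted with edgeR 4.0.16 (limma 3.58.1, R 4.3.3) after filterByExpr and TMM, with treatment and day as terms. glmQLFTest was used with Benjamini-Hochberg adjustment over 16110 genes at an FDR of 0.05. The 3 days served as replicates of a treatment and the 4 treatments as replicates of a day, and a treatment response that varies over time enters the residual. Nothing in the labels says how many animals stand behind a library, and p-values measure only the spread between these libraries. Library pairs of a day were compared by fold alone, over genes with at least 10 reads in the pair together, at a limit of 2-fold. Their intervals are exact Clopper-Pearson at 95% and cover counting error only. Where a library had fewer than 3 reads, the fold was also computed with 3 reads. Likeness was Pearson's r over 12 libraries on log2 CPM with a prior count of 2. The 2 farthest libraries were those farthest from the median of the first gene of a pair in list order. For marker sums and for the member profile, they were those farthest from the median of that sum or profile. Named genes were all members, from each other list the 3 genes with the largest absolute estimate in the comparison described (or the called genes where 3 or fewer) or the first of these, and the 10 genes most like the mean standardized member profile. Genes given for another reason, such as those with an unadjusted p below 0.05 or an r above 0.5, and the markers at 0 reads, were chosen after their values were seen. The 12 further lists hold genes of lipid storage, transcription factors, receptors, brown fat, progenitors, and fatty acid synthesis, and markers of sebaceous gland, muscle, keratinocytes, endothelium, macrophages, and fibroblasts. Of these, Lor, Trp63, Sfn, and Cox7a1 were not matched in the count table. Alternatives were RLE or library-size scaling, no low-count filter or at least 50 reads, DESeq2 1.42.0, limma on log2(FPKM + 1) and log2(FPKM + 0.1), no replicate block, only the 6 libraries compared, leaving out each library, day, or treatment, limits of 1.5-fold and 3-fold, and the edgeR exact test at an assumed BCV of 0.3. The lists and the likeness counts without the d-SMG library of day 3 or the s-GAG library of day 14 were added after seeing the data. Promoters are RefSeq sequences (GRCr8). Plots used Python 3.11.15 and matplotlib 3.10.9.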

Additional observations from a re-analysis of the deposited data

Results flagged for a closer look

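With d-SMG, 4 members were at least 2-fold below the control on day 3 and at least 2-fold above it on day 7. The day 7 minus day 3 difference of the log2 fold change was 5.09 for Adipoq, 3.24 for Plin1, 3.76 for Cidec, and 3.52 for Cfd. With 1 library on each side the difference between the days was not tested. In the d-SMG library of day 3 the keratinocyte markers summed to 46.2 CPM and the muscle markers to 249760 CPM, against 7846 and 5899 CPM in the d-SMG library of day 7, and their part was not tested. The control of day 7 also held the lowest share of member reads of all 12 libraries.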

How the results depend on the processing

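No member was called by the edgeR quasi-likelihood test under any alternative that kept that test. DESeq2 called 1 member with s-GAG and 1 with Alg, Retn in both. Without the replicate block (no day term) 0 members were called, as with it. The 30 estimates of the members over the days were recomputed 720 times, of which 661 kept direction and call, 57 changed sign, and 2 (Retn with DESeq2) became called, and 19 of the 30 never changed sign. Over all genes, edgeR called 0 in each comparison, but with s-GAG 66 without the d-SMG library of day 3, 1 without the Alg library of day 7, 1 without the low-count filter, and 12 with only the 6 libraries compared, and with Alg 9 with only the 6. Pparg with Alg (-0.013) became 0.0054 with RLE size factors, 0.037 with library size, 0.0052 with DESeq2, 0.073 with log2(FPKM + 1), 0.093 with log2(FPKM + 0.1), and 0.052 with only the 6 libraries compared. With d-SMG and library size, Plin1 was at 0.057, Pparg at 0.085, and Cfd at 0.12. With d-SMG and no replicate block, Plin4 was at 0.26, Cidec at -0.0049, and Pparg at 0.0037. Cidec with d-SMG was at -0.060 with log2(FPKM + 0.1) and at -0.13 with only the 6 libraries. Leaving out a library or a day gave d-SMG ranges of -1.05 to 0.47 for Plin1, -1.24 to 0.58 for Plin4, -0.33 to 0.87 for Fabp4, -0.71 to 0.72 for Cidec, -0.17 to 0.56 for Lipe, -0.59 to 0.73 for Pparg, and -1.26 to 0.63 for Cfd. The s-GAG ranges were -0.87 to 0.12 for Lipe and -0.11 to 0.85 for Pparg, and the Alg ranges -0.74 to 0.88 for Plin4 and -0.39 to 0.62 for Pparg. The r of Adipoq with Lipe was 0.27 with log2(FPKM + 1) and -0.13 to 0.31 when a library was left out, and that of Adipoq with Plin4 was -0.39 to 0.20. Of the 10 genes most like the member profile, 5 were shared with log2(FPKM + 1) and 3 to 9 when a library was left out. The cause of these changes was not tested.

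Counts of members at least 2-fold from the control moved as follows. Shares of all genes were computed only at 2-fold with TMM scaling and for the exact test. The counts at other limits or scalings therefore have no background and show only how the member counts moved. With s-GAG on day 14, 2 members in place of 1 were lower by library size, log2(FPKM + 1), and log2(FPKM + 0.1). With log2(FPKM + 1), which shrinks low genes, 2 were higher with s-GAG on day 3, 0 lower with d-SMG on day 7, and 1 higher with d-SMG on day 14. At 1.5-fold, 2 were higher with d-SMG and 8 higher and 2 lower with Alg on day 3, and on day 14 6 were lower with d-SMG, 2 lower with s-GAG, and 5 higher and 1 lower with Alg. At 3-fold, 1 was higher with s-GAG on day 3, and 0 were lower with d-SMG on days 7 and 14 and with s-GAG on day 14. The exact test at the assumed BCV of 0.3 called, on day 3, 1 lower with d-SMG, 1 higher with s-GAG, and 2 higher with Alg. On day 7 it called 0 higher and 0 lower with d-SMG, 4 higher with s-GAG, and 1 higher with Alg, and on day 14 2 higher and 0 lower with d-SMG, 2 higher and 0 lower with s-GAG, and 1 higher with Alg. Lep, at 0 to 33 reads per library, is limited by depth.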
